A study of Mus musculus with 22 samples.

Results

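The 33 coagulation and fibrinolysis genes described here were chosen by symbol, as the factors, cofactors, inhibitors and fibrinolytic enzymes of blood clotting, and 32 of them had at least 1 probe set assigned to that gene alone (42 probe sets in all, of 45101 on the array and 18194 genes so covered). Carboxypeptidase B2 (Cpb2) had none and is named only. The set comprises 16 procoagulant genes, 9 anticoagulants, 4 genes of plasminogen activation, 3 inhibitors of fibrinolysis and fibrinogen-like 1 (Fgl1). Total RNA was taken from livers of male C57BL6 mice, 8 weeks old, that received diclofenac sodium at 30 mg/kg by daily intraperitoneal injection or the corresponding volume of saline. Groups were diclofenac day 1, day 3 and day 14 and saline day 1, day 3 and day 14, with 3 arrays in each group of days 1 and 3 and 5 in each group of day 14 (22 Affymetrix Mouse 430 2.0 arrays, 1 per liver). Nothing in the labels states litters or cages, so p-values measure the spread between these livers, and in whole liver fewer cells of a type and less RNA per cell cannot be told apart. Values are MAS5 signals, a linear brightness per probe set with no depth of its own, and signals of different genes are not compared with each other.

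Clotting starts when tissue factor meets factor VII or when factor XII is activated on a surface with prekallikrein and kininogen, and both routes end in factor X, prothrombin and the conversion of fibrinogen to fibrin. Antithrombin, heparin cofactor II, the protein Z system, tissue factor pathway inhibitor and the protein C system hold the cascade in check, and plasmin dissolves fibrin. Hepatocytes make most of these proteins for the plasma, whereas von Willebrand factor, factor VIII, thrombomodulin and the endothelial protein C receptor come largely from endothelium. Fibrinogen and several of the inhibitors belong to the acute phase proteins, whose genes hepatocytes control through interleukin-6, STAT3 and C/EBP factors.

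After a single dose, at day 1, 7 of 31 members tested had every diclofenac array above every saline array, against 8.23% of the 12891 genes tested, and 2 had every array below, against 8.08%. Procr, among these 7, was tested only because of its diclofenac arrays. Fewer than 3 saline arrays of days 1 and 3 exceeded their array median for it, so its place in the count is no support. At day 3 the counts were 17 and 0 of 31, against 10.8% and 9.2% of all genes. At day 14 they were 9 and 0 of 29, against 2.19% and 1.61% of 11895 genes. Fgl1, Serpina10 and Serpinf2 were the members above saline in every array on all 3 days. The median log2 difference of the members, diclofenac minus saline, was 0.14 at day 1, 0.18 at day 3 and 0.37 at day 14, beside 0.00097, 0.0087 and -0.014 over all genes tested. Of the 29 members tested on all days, 18 had a positive difference on each day and 2 a negative one.

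No member passed the test on a single day. A call was an adjusted p under 0.05 in limma with Benjamini-Hochberg adjustment over all genes tested, which 0% of genes reached at day 1, 0.202% at day 3 and 0% at day 14. Unadjusted p was under 0.05 for 13 of 31 members at day 1, 12 of 31 at day 3 and 14 of 29 at day 14, beside 13%, 10.8% and 10.9% of all genes. With the effects of days 1 and 3 averaged, 2 of 31 members were called, Fgl1 and Serpina10, both higher in diclofenac, beside 0.675% of all genes (87, of which 65 were higher). Fga and Fgb were next in that comparison (adjusted p = 0.0505 and 0.055, limma). An unadjusted p under 0.05 was found for 15 of 31 members, Procr among them, beside 17.2% of all genes. The day 3 effect did not pass as different from the day 1 effect for any member (1 of 31 with unadjusted p under 0.05) or for any gene (0%). Without diclofenac day 1 replicate 2, 4 members were called at day 3 (Fga, Fgb, Fgl1, Serpina10), beside 1.38% of all genes (176). Their day 3 differences did not change, since that liver is no part of day 3. The SE did, from 0.0811 to 0.0640 for Fga, because days 1 and 3 share 1 estimate of the spread. Without diclofenac day 14 replicate 3, 5 were called at day 14 (Fgl1, Serpina10, Proz, Kng1, Serpinf2), beside 1.06% of all genes (124), so calls over the whole array were also more numerous in both settings. Leaving out the first of these livers moved the day 1 difference of 18 of 31 members by over 1.5 times or turned its sign, with 14 smaller, 0 larger and 4 turned (F2, Fgg, Plaur, Serpinc1). Leaving out the second did so at day 14 for 10 of 29 members, with 5 smaller, 2 larger and 3 turned (F13b, Klkb1, Serpind1).

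**Figure D1:**
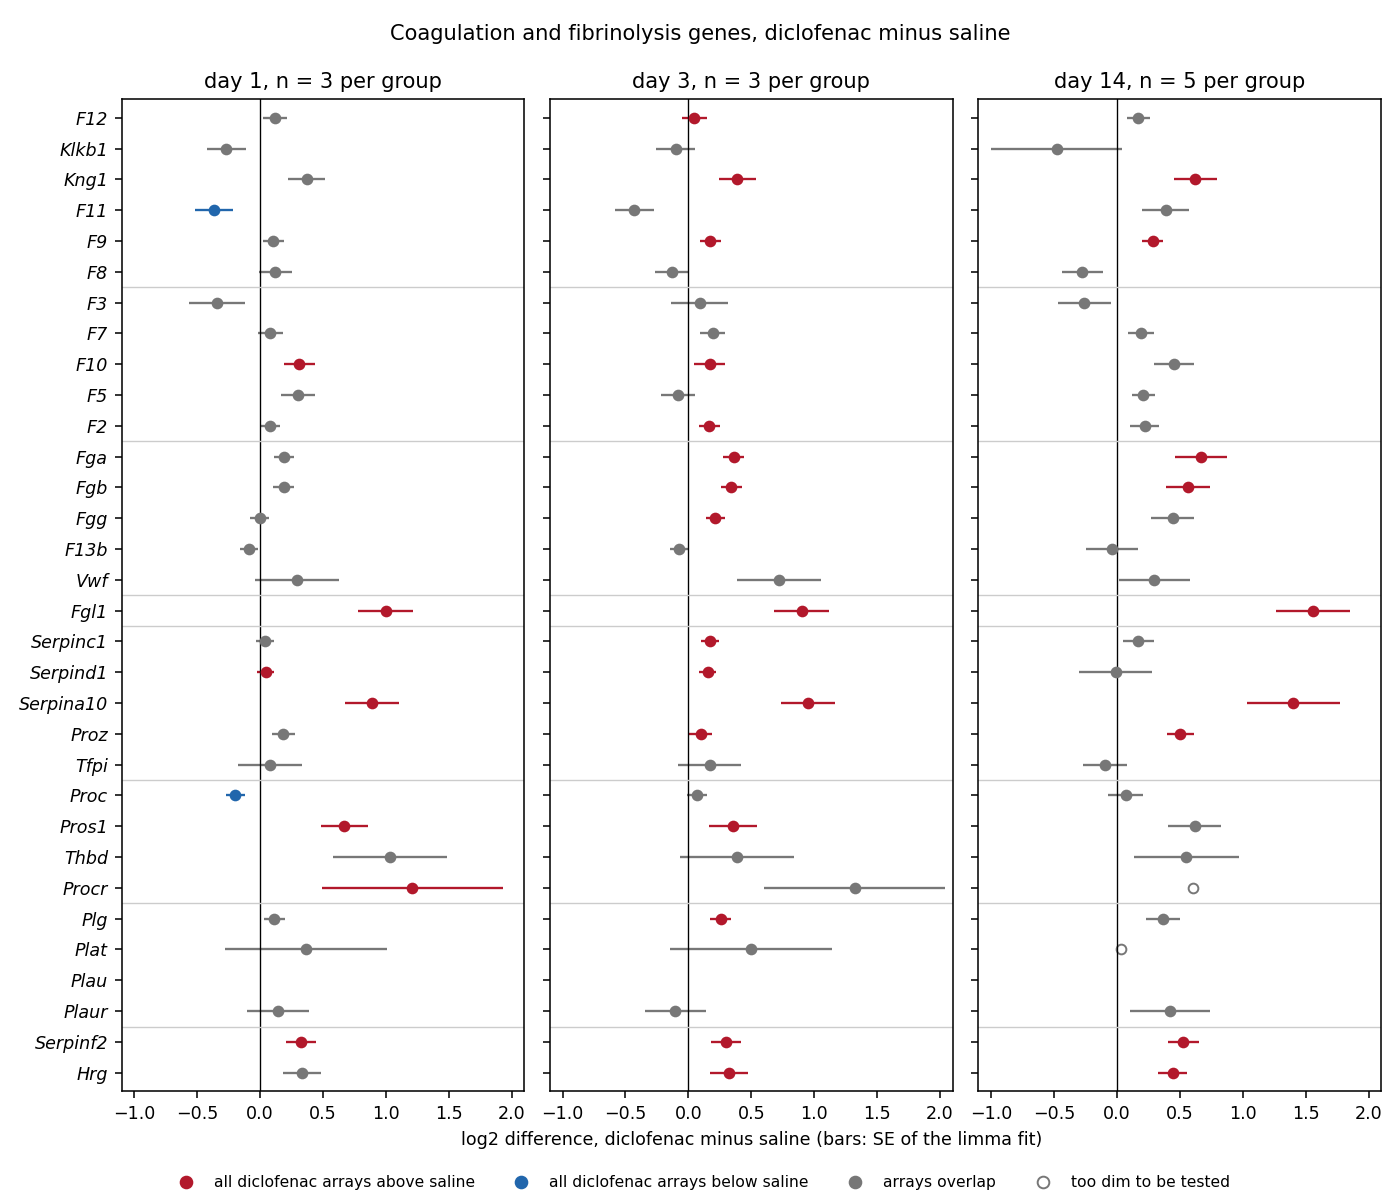
Log2 difference of signal, diclofenac minus saline (x axis), for the measured members grouped by role (y axis, groups parted by grey lines) on each day, with the SE of the limma fit; red marks all diclofenac arrays above saline, blue all below, grey overlap and open circles genes too dim to be tested (Plau is not drawn). Fgl1 and Serpina10 stood furthest right at day 14, at 1.56 and 1.40, and the differences of F11 changed sides between day 3 and day 14.

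The livers were not alike within the diclofenac groups. Diclofenac day 14 replicate 3 had an A2m signal of 90009 (alpha-2-macroglobulin, a plasma protease inhibitor), against 85.3 to 113 in the other diclofenac livers of that day, and a summed signal of 8 neutrophil markers of 24035, against 690 to 2438. Diclofenac day 1 replicate 2 had 2725 for A2m against 70.7 and 78.6, and 21515 for the neutrophil markers against 1033 and 1375. Summed neutrophil markers in diclofenac livers ranged over 1033-21515, 1851-2874 and 690-24035 on days 1, 3 and 14, against 675-1084, 416-567 and 332-544 in saline livers. Summed Kupffer cell and macrophage markers (7 of 7 on the array) ranged over 26754-37355, 23249-33429 and 7312-24311 in diclofenac livers, against 15801-25209, 20358-22431 and 4250-11258 in saline livers. Endothelial sums (8 of 8) overlapped on every day, as did hepatocyte sums (8 of 8), with 489767-648295 in diclofenac livers at day 14 against 447661-611365 in saline livers. Single markers did not all overlap. Of the 8 endothelial markers, 1 lay wholly below saline at day 1 and 2 at day 14, against 8.08% and 1.61% of all genes. Their day 14 differences were negative for 6 of 8, and 0 were called. Of the 8 hepatocyte markers, 4 lay wholly above saline at day 3, against 10.8% of all genes. Stellate cell sums (7 of 7) lay below saline at day 1, with 9645-11335 in diclofenac livers against 13210-16390 in saline livers, overlapped on the other days, and 1 of these markers, Reln, was called for the mean of days 1 and 3 (-0.65, adjusted p = 0.0442, limma). The cholangiocyte sum (4 of 5) was 2358 in diclofenac day 14 replicate 3, against 321 to 481 in the other diclofenac livers of that day. The control probe sets for RNA integrity gave a log2 3′/5′ ratio of 0.736 ± 0.0488 in diclofenac livers and 0.624 ± 0.0634 in saline livers at day 14 (SD, n = 5 each, exact two-sided permutation p = 0.0238). The hybridisation controls averaged 11.67 ± 0.144 in diclofenac livers and 11.46 ± 0.118 in saline livers on the log2 scale at day 14 (SD, n = 5 each, exact two-sided permutation p = 0.0476). The part of these cells and controls in the results below was not tested. Array medians were 75.2 to 89.9, and within-group correlations of log2 signals were 0.876 to 0.926.

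Bright probe sets as a class lay above saline at day 3, and the brightest members are among them. Of the 71 other genes with a mean signal of at least 40000, 60.6% had every diclofenac array above saline at day 3 (median log2 difference 0.143), and all 7 members of that brightness did (median 0.256). At day 14 the shares were 9.86% of other genes and 3 of 7 members, with medians of 0.0564 and 0.442. After quantile normalization, which gives each array the same distribution, 14.1% of these other genes and 4 of 7 members lay above saline at day 3. At day 14 they were 12.7% and 3 of 7. With a mean signal of 10000 to 40000, 20.1% of 448 other genes and 8 of 12 members lay above saline at day 3 from deposited signals. After quantile normalization these were 13.6% and 7 of 12. At day 14 they were 7.59% and 5 of 12 with either scaling. Over all members the counts above saline after quantile normalization were 8 at day 1, 14 at day 3 and 9 at day 14, beside 8.26%, 10.5% and 2.07% of all genes. They were 7 at day 1 without diclofenac day 1 replicate 2 (11.9% of all genes) and 10 at day 14 without diclofenac day 14 replicate 3 (3.18% of all genes). Procr is among the day 1 counts of both settings.

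**Figure D2:**
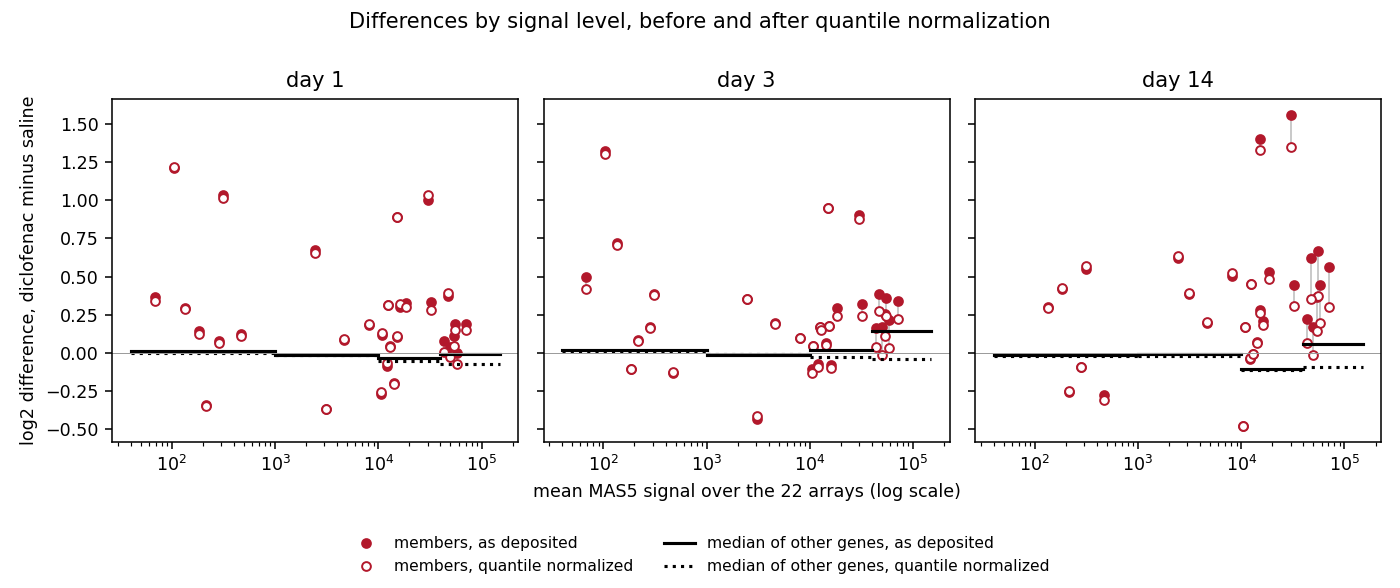
Log2 difference, diclofenac minus saline (y axis), of each tested member against its mean signal over 22 arrays (x axis, log scale), from deposited signals (filled) and after quantile normalization (open), with the medians of the other genes in 4 signal ranges as lines. Among genes of at least 40000 the median of other genes at day 3 was 0.143 from deposited signals and -0.039 after quantile normalization.

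Fgl1, a secreted hepatocyte protein with a fibrinogen-like domain that is also called hepassocin, had the largest difference of the members at day 14. At day 1 its signals were 35129, 49905 and 37037 in diclofenac livers, against 21662, 13740.4 and 27211 in saline livers. At day 3 they were 37859, 28974 and 29827 in diclofenac livers, against 17302, 19968 and 14574 in saline livers. At day 14 they were 51802, 42563, 74702, 34112 and 43388 in diclofenac livers, against 23824, 24625, 17025, 9209 and 11906 in saline livers. No diclofenac liver reached down to the highest saline liver of its day. The log2 differences were 1.00 and 0.90 (SE 0.218 each) and 1.56 (SE 0.291) (2.95-fold at day 14), with adjusted p of 0.235, 0.140 and 0.0932 on single days (limma) and an exact two-sided permutation p of 0.0079 at day 14, the smallest that 5 against 5 allows. The mean effect of days 1 and 3 was 0.95 (SE 0.154, adjusted p = 0.0171). Leaving out 1 array at a time moved it over 0.81 to 1.06 with adjusted p of 0.0115 to 0.0662, and the call was lost without saline day 3 replicate 1, saline day 3 replicate 3 or diclofenac day 3 replicate 1.

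Serpina10, the protein Z-dependent inhibitor of factor Xa, was the second member called. Signals were 19209, 32786 and 17346 in diclofenac livers at day 1, against 11637, 10736 and 13699 in saline livers. At day 3 they were 28167, 18940.4 and 17969 in diclofenac livers, against 10520.2, 11102 and 11417 in saline livers. At day 14 they were 18333, 11197, 45631, 8325 and 13248 in diclofenac livers, against 5102, 6948, 6812, 5089 and 6509.6 in saline livers. All diclofenac livers lay above saline on each day, and the diclofenac livers spread more widely, with replicate 3 highest at day 14. The log2 differences were 0.89, 0.95 (SE 0.214 each) and 1.40 (SE 0.369), and the mean effect of days 1 and 3 was 0.92 (SE 0.152, adjusted p = 0.0189, limma). That call was lost without any 1 of saline day 1 replicates 1 and 2, saline day 3 replicates 1, 2 and 3, and diclofenac day 3 replicate 1 (adjusted p up to 0.073), while the effect stayed between 0.78 and 1.01. Without diclofenac day 14 replicate 3 the day 14 difference was 1.02, with an adjusted p of 0.0294.

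**Figure D3:**
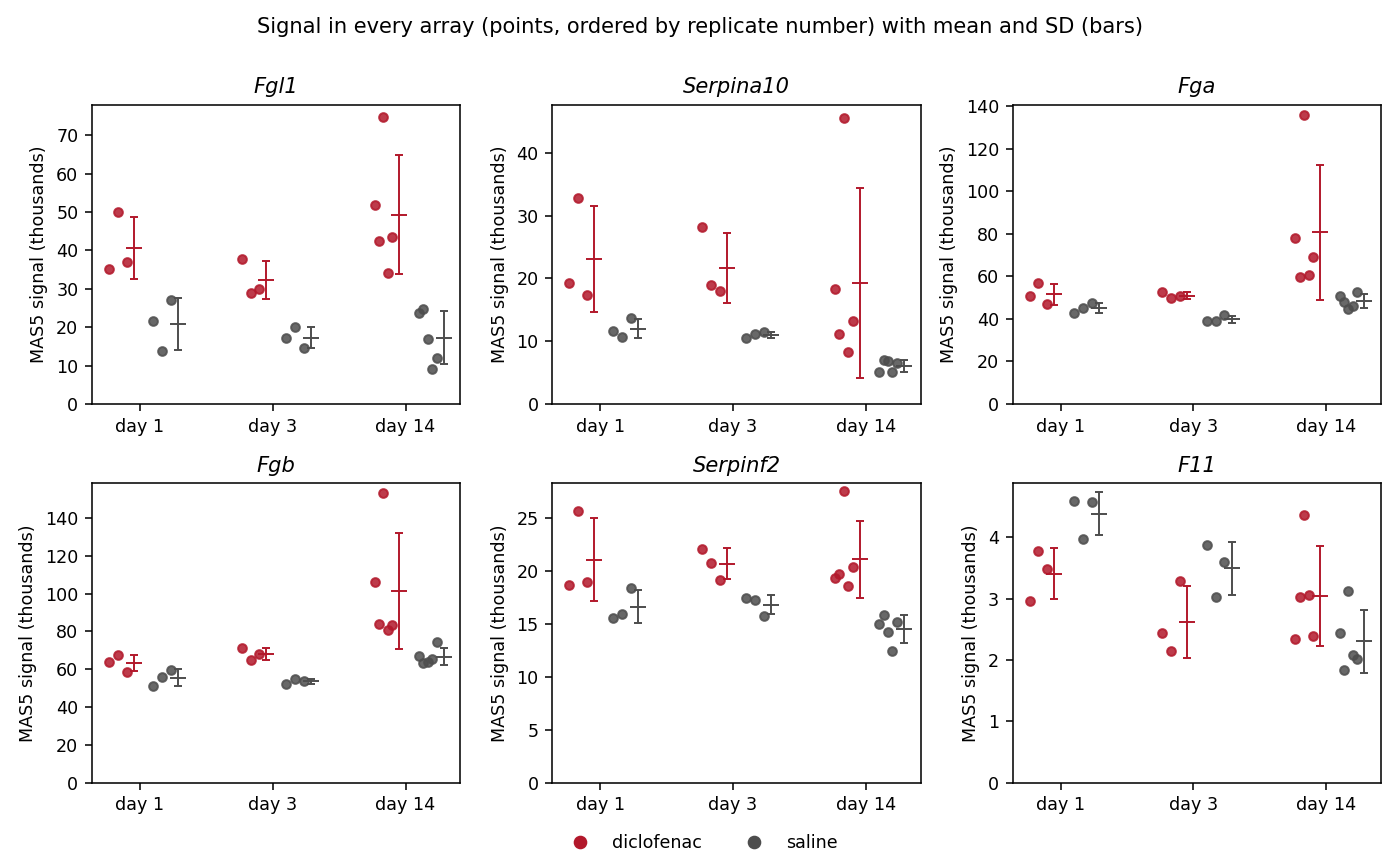
MAS5 signal divided by 1000 (y axis, from 0) in every array of 6 members by day (x axis), diclofenac in red and saline in grey, with mean and SD bars. For Fgl1, Serpina10 and Serpinf2 the diclofenac points lay above the saline points on each day, and for F11 below saline at day 1.

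Protein Z (Proz) is the vitamin K-dependent cofactor of Serpina10 and stood apart at days 3 and 14. Its signals were 10242, 12830.0 and 10874 in diclofenac livers at day 1 against 9852, 9283 and 10629.7 in saline livers, and 9527, 9012 and 9240.3 in diclofenac livers at day 3 against 8849.9, 8753 and 8369 in saline livers. At day 14 they were 6846, 6716, 7179.8, 6720.0 and 7876 in diclofenac livers, against 5290.1, 5868, 5185, 4147 and 4539 in saline livers, with all diclofenac livers above (exact permutation p = 0.0079). The day 14 difference was 0.51 (SE 0.108, adjusted p = 0.125, limma), against 0.19 and 0.10 on days 1 and 3. A second, dimmer probe set gave 0.42 at day 14, also with all arrays above saline. Without diclofenac day 14 replicate 3 the difference was 0.50 and passed the test (adjusted p = 0.0476).

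Fibrinogen is built from 3 kinds of chain, encoded by Fga, Fgb and Fgg, which lie together on mouse chromosome 3. Fga had 50519, 56674 and 47151 in diclofenac livers at day 1 against 42596, 44877 and 47322 in saline livers, and 52553, 49740.4 and 50591 in diclofenac livers at day 3 against 38818, 38788 and 41648 in saline livers. The day 14 values were 78109, 59603, 135741, 60404 and 69111 in diclofenac livers, against 50599.8, 47688, 44629, 46075 and 52567 in saline livers. Thus 1 diclofenac liver lay below the highest saline liver at day 1 and none at day 3 or day 14. The log2 differences were 0.19, 0.36 (SE 0.0811 each) and 0.67 (SE 0.204), with adjusted p of 0.353, 0.121 and 0.278 (limma).

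Fgb had 63850.5, 67492 and 58570.3 in diclofenac livers at day 1 against 51103, 56062 and 59674 in saline livers, and 71251, 64985 and 67908 in diclofenac livers at day 3 against 52142, 54926 and 53965 in saline livers. By day 14 it had 106399, 84147, 153406, 80558 and 83362 in diclofenac livers, against 66847, 63136, 63721, 65302 and 74204 in saline livers. The groups parted at days 3 and 14, with differences of 0.34 (SE 0.081) and 0.56 (SE 0.174), and overlapped at day 1 (0.19). Fgg had 52368, 47407 and 46741 in diclofenac livers at day 1 against 45938, 49044 and 51828 in saline livers, and 52433, 50118 and 51979 in diclofenac livers at day 3 against 42468, 46533 and 44213 in saline livers. At day 14 Fgg had 96648, 64344, 107128, 66726 and 72176 in diclofenac livers, against 58634, 53598, 49364, 61024 and 73127 in saline livers, so that 3 of 5 diclofenac livers lay below the highest saline liver. Its differences were -0.0030, 0.21 and 0.44 (adjusted p of 0.992, 0.317 and 0.383, limma).

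The signals of the 3 chains did not move together in every liver. The values below compare livers with each other, not the amount of 1 chain with another. All 3 probe sets are among the brightest, and the part of brightness in this was not tested. Relative to the mean log2 signal of the chains, Fgg stood at -0.29 in diclofenac day 14 replicate 3, against -0.092 to 0.056 in the other 4 diclofenac livers and -0.074 to 0.15 in saline livers of that day. Fga stood at 0.055 in that liver, against -0.25 to -0.11 in the other 4. In diclofenac day 1 replicate 2 the values were -0.26 for Fgg and 0.0019 for Fga, against -0.11 and -0.078 for Fgg in the other 2 diclofenac livers. Quantile normalization took the day 3 differences to 0.24 for Fga, 0.22 for Fgb and 0.035 for Fgg, and those of day 14 to 0.38, 0.30 and 0.19, a change of over 1.5 times at day 14 for each chain. Without diclofenac day 14 replicate 3 they were 0.46, 0.40 and 0.34 (adjusted p of 0.0502, 0.0867 and 0.325).

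The sequences before the fibrinogen genes are shown because the differences of all 3 chains were positive at days 3 and 14 and because elements for C/EBP and STAT3 factors in fibrinogen promoters are known from rat and human genes as sites of acute phase control. Each is the 250 bases before the RefSeq start on GRCm38.p6, written in the direction of the gene, at chr3:83025903-83026152 (plus strand) for Fga, chr3:83049864-83050113 (minus strand) for Fgb and chr3:83007474-83007723 (plus strand) for Fgg. Capitals mark CTGGGAA, a core of the interleukin-6 response element, or TTCNNNGAA, the palindrome that STAT dimers bind, searched on both strands.
Fga: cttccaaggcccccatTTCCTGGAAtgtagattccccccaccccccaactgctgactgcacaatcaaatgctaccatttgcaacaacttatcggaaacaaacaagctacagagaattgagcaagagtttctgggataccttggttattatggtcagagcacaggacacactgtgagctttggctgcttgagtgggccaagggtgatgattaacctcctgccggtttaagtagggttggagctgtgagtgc
Fgb: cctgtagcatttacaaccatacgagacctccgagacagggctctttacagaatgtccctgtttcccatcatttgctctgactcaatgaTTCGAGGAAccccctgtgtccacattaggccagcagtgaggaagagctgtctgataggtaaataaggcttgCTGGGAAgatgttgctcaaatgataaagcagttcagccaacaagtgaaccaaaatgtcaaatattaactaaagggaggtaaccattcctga
Fgg: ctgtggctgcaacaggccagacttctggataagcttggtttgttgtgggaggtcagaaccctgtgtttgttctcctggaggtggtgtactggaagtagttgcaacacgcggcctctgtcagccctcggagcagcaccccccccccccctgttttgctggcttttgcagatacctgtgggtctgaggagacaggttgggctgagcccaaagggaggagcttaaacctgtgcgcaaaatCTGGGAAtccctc
In Fgb the CTGGGAA match covers bases -91 to -85 from the start and the TTCNNNGAA match bases -162 to -154. Fga has TTCNNNGAA at -234 to -226 and Fgg has CTGGGAA at -13 to -7. Fga and Fgb also have GTTAAT, the core bound by HNF1, on the minus strand at -43 to -38 and -29 to -24. A match is a run of letters and not a measured site.

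Promoters were found in the RefSeq table for 24 of the 33 members (25 promoters), and Fgl1, Serpina10 and Kng1 are not among them. CTGGGAA occurred in 4 of the 25, against 9.1% of 32851 mouse promoters of the same length, TTCNNNGAA in 4 of 25 against 7.02%, and GTTAAT in 4 of 25 against 6.43%. Beside the fibrinogen genes, protein S (Pros1) has TTCNNNGAA at -92 to -84, and in F9 a reverse CTGGGAA at -82 to -76 overlaps a TTCNNNGAA at -82 to -74. Tfpi, which by its brightest probe set stood apart on no day, has a reverse CTGGGAA at -76 to -70. Neither motif occurred in the promoters of Serpinf2, Hrg, Proz, F10, F12, F2, Serpinc1, Serpind1 and Procr. These genes also lay above saline in every array on some day. F11, wholly below at day 1, had neither motif. Any link between a match and a difference was not tested. The match in Pros1 is shown because its diclofenac arrays stood apart on days 1 and 3, at chr16:62854057-62854306 (plus strand) with the same capitals.
Pros1: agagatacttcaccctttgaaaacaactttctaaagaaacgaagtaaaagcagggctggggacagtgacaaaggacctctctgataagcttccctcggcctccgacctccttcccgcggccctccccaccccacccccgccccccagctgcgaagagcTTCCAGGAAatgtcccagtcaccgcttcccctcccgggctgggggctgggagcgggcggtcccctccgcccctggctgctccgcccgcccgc

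Neither other member of the last step stood apart on any day. The B subunit of the fibrin-stabilizing transglutaminase (F13b) had differences of -0.087, -0.071 and -0.038, and in diclofenac livers at day 14 its signals ran over 6328-13575 (median 12812), against 8937-12953 (median 12065) in saline livers, with replicate 3 alone at the bottom. Von Willebrand factor (Vwf), the endothelial carrier of factor VIII, had 144, 169 and 135 in diclofenac livers at day 1 against 130.0, 151 and 91.3 in saline livers, and 177, 113 and 177 in diclofenac livers at day 3 against 58.7, 108 and 125 in saline livers. After 14 days it had 148, 161, 235, 86.5 and 145 in diclofenac livers, against 150.2, 92.1, 147, 145 and 84.9 in saline livers. The groups overlapped on each day, and differences were 0.29, 0.72 and 0.30 (adjusted p of 0.732, 0.46 and 0.709, limma).

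In the contact and intrinsic pathway, high molecular weight kininogen (Kng1), which brings prekallikrein and factor XI to surfaces, lay above saline in every diclofenac liver at days 3 and 14, whereas factor XI and prekallikrein did so on no day. Kng1 had 40157, 64360.1 and 43591 in diclofenac livers at day 1 against 33719, 35620.5 and 43472 in saline livers, and 49703, 46619 and 46012 in diclofenac livers at day 3 against 37852, 37093 and 33824 in saline livers. Its day 14 signals were 67366, 56224, 97526, 52494 and 51118 in diclofenac livers, against 43389.6, 37624, 42887, 37479 and 43379 in saline livers. All diclofenac livers lay above saline at days 3 and 14, with log2 differences of 0.37, 0.39 (SE 0.15 each) and 0.62 (SE 0.171, adjusted p = 0.235, limma). The day 1 difference was 0.16 without diclofenac day 1 replicate 2. A second Kng1 probe set gave 0.32, 0.18 and 0.42, with all diclofenac arrays above saline on each day. The near-identical neighbour Kng2 may share probes with either. After quantile normalization the day 14 difference of the first probe set was 0.35, with overlapping groups.

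Factor XI (F11), the protease that activates factor IX, had 2959.9, 3782 and 3491 in diclofenac livers at day 1 against 4597, 3979 and 4583 in saline livers, all below. At day 3 it had 2440.4, 2143 and 3284 in diclofenac livers, against 3872, 3023 and 3596 in saline livers. On day 14 the signals were 2343, 3024, 4372, 3067 and 2394 in diclofenac livers, against 2442, 1844, 3129, 2083 and 2025 in saline livers. The differences were -0.37 and -0.43 (SE 0.154 each) and 0.39 (SE 0.189), with a mean effect of days 1 and 3 of -0.40 (adjusted p = 0.106, limma). Without diclofenac day 14 replicate 3, the liver at 4372, the day 14 difference was 0.25. In a model of all 22 arrays its day 14 effect minus the mean effect of days 1 and 3 was 0.79 (SE 0.223), the lowest p of the members, but with an adjusted p of 0.536 (limma), and 0 of 31 members passed, beside 0.0225% of all genes. Prekallikrein (Klkb1), whose gene is the direct neighbour of F11, ran over 8287-13201 in diclofenac livers at day 1 against 12488-14271 in saline livers, and over 9637-12992 at day 3 against 11677-13085. At day 14 it ran over 1211-11967 (median 9157), against 8008-10902 (median 9139.5). Its differences were -0.27, -0.10 and -0.48, and without diclofenac day 14 replicate 3, the liver at 1211, the last was 0.13. Without diclofenac day 1 replicate 2 the first was -0.058.

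Factor IX (F9), the protease missing in haemophilia B, had 13827, 16445 and 14812 in diclofenac livers at day 1 against 13337, 14338 and 14142 in saline livers, and 15362, 13879 and 14364 in diclofenac livers at day 3 against 12385, 13285 and 12927 in saline livers. At day 14 it had 20062, 17164, 16856, 17576 and 19141 in diclofenac livers, against 14555, 15530.1, 14638, 14739 and 14962 in saline livers. The groups parted at days 3 and 14 by small amounts, 0.18 and 0.28 (SE 0.0817 and 0.0857, adjusted p of 0.468 and 0.272, limma). Factor XII (F12) parted at day 3 alone, with 10124, 10218 and 10326 in diclofenac livers against 9649.5, 9946 and 10105 in saline livers, a difference of 0.046. Its other values were 9988, 11721 and 9449.7 in diclofenac livers at day 1 against 8458, 10519.9 and 9741 in saline livers, and 13236, 12969, 13172, 11439 and 11919 in diclofenac livers at day 14 against 11059.6, 9863, 10888, 11762 and 12231 in saline livers. Factor VIII (F8), the cofactor of factor IX, ran over 546-678, 522-657 and 209.9-342 in diclofenac livers against 551-592, 593-723 and 247-368 in saline livers, with differences of 0.12, -0.13 and -0.27.

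Tissue factor (F3), the membrane receptor that starts clotting, did not stand apart on any day. It had 315, 229 and 402 in diclofenac livers at day 1 against 381, 392 and 394 in saline livers, and 157, 218 and 257 in diclofenac livers at day 3 against 185, 214 and 185 in saline livers. By day 14 it had 107, 173, 98.9, 101 and 164 in diclofenac livers, against 157, 149.9, 168, 156 and 120.4 in saline livers. Its protease partner factor VII (F7) had 4769, 5401 and 5463 in diclofenac livers at day 1 against 4518, 4955 and 5288 in saline livers, and 5319, 4747 and 5332 in diclofenac livers at day 3 against 4774, 4647 and 4059 in saline livers. At day 14 F7 had 4898, 4741, 3954, 4790.2 and 4301 in diclofenac livers, against 4397, 3814, 4398, 3437 and 3819 in saline livers, and its differences of 0.083, 0.19 and 0.19 left the groups overlapping. After quantile normalization all F7 diclofenac arrays lay above saline at day 3.

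Factor X (F10), on which both routes converge, lies directly between F7 and Proz on mouse chromosome 8. It had 15140.0, 21933 and 15947 in diclofenac livers at day 1 against 14215, 13306 and 14612 in saline livers, and 15377, 13702 and 16224 in diclofenac livers at day 3 against 13577, 13287 and 13356 in saline livers, above saline both times. After 14 days it had 11229.9, 10504, 14928, 8935 and 8461 in diclofenac livers, against 7464, 7299.6, 9229.8, 6651 and 8254 in saline livers, with overlap. The differences were 0.31 and 0.17 (SE 0.121 each) and 0.45 (SE 0.156, adjusted p = 0.334, limma), and all 3 probe sets of F10 were higher on each day. Without diclofenac day 1 replicate 2 the day 1 difference was 0.15. After quantile normalization the day 3 difference was still 0.17, but the groups overlapped.

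Factor V (F5), the cofactor of factor Xa, ran over 13212-19727, 11452-12741 and 18499.9-22528 in diclofenac livers on days 1, 3 and 14, against 10839-13873, 12208-13035 and 16796-19515 in saline livers. Its differences were 0.30 (0.14 without diclofenac day 1 replicate 2), -0.081 and 0.21, and a second probe set had all diclofenac arrays above saline at day 1 and all below at day 3. Prothrombin (F2) had 37167, 43574 and 35318 in diclofenac livers at day 1 against 35558, 36457 and 37292 in saline livers, and 42382, 40040.2 and 40759.6 in diclofenac livers at day 3 against 35528, 37219 and 36990.2 in saline livers. At day 14 F2 had 61397, 47606, 58824, 47960.3 and 53280.4 in diclofenac livers, against 44963, 43019, 42058, 48756 and 51665 in saline livers. The day 3 groups parted by 0.17, which was 0.041 after quantile normalization.

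Of the other inhibitors of the cascade, antithrombin (Serpinc1), the main inhibitor of thrombin, parted at day 3 alone. It had 43684, 48377 and 42885 in diclofenac livers at day 1 against 41382, 45320.2 and 44417 in saline livers, and 48014, 45871 and 47345 in diclofenac livers at day 3 against 41239, 42942 and 41220.0 in saline livers. Its day 14 signals were 65326, 50816, 72221, 56344 and 56317 in diclofenac livers, against 53140.4, 48519.6, 49214, 56410.2 and 58710.4 in saline livers. Differences of 0.041, 0.17 and 0.17 became -0.027, -0.010 and -0.012 after quantile normalization, so its direction turned with the scaling.

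Heparin cofactor II (Serpind1), a second thrombin inhibitor, had 15408, 15574 and 15323 in diclofenac livers at day 1 against 14404, 15222 and 15194 in saline livers, and 13471, 14186 and 14769 in diclofenac livers at day 3 against 12518, 12821 and 12754 in saline livers. On day 14 the signals were 14680.1, 11409, 4347, 13211 and 14820.2 in diclofenac livers, against 9968, 10667, 10789, 10671 and 11934 in saline livers. The differences were 0.047, 0.15 and -0.0071, and without diclofenac day 14 replicate 3, the liver at 4347, the last was 0.32 (adjusted p = 0.144, limma). Tissue factor pathway inhibitor (Tfpi) ran over 237-508, 352-402 and 145-251 in diclofenac livers, against 244-384, 293-383 and 175-246 in saline livers. Its 4 probe sets disagreed in sign on days 1 and 3 and were all negative at day 14. At day 3 a second probe set had all diclofenac arrays below saline (-0.32), and another gave -0.91 with overlap.

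In the protein C pathway, protein S (Pros1), the cofactor of activated protein C, had the lowest p for the mean of days 1 and 3. It had 2491, 4019 and 2253 in diclofenac livers at day 1 against 1908, 1531 and 1913 in saline livers, and 2444, 2056 and 1862 in diclofenac livers at day 3 against 1833, 1593 and 1534 in saline livers. The day 14 values were 3566, 3227, 5515, 2542 and 2605 in diclofenac livers, against 2365, 1636, 2772, 2078 and 2206 in saline livers. Diclofenac livers lay above saline at days 1 and 3 and overlapped at day 14, where 2 of 5 lay below the highest saline liver. The differences were 0.67 and 0.35 (SE 0.189 each) and 0.62 (SE 0.21), and the mean effect of days 1 and 3 was 0.51 (SE 0.134, adjusted p = 0.0969, limma). Without diclofenac day 1 replicate 2 the day 1 difference was 0.42.

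Protein C (Proc), the anticoagulant protease itself, lay below saline at day 1, with 13945, 14277 and 15074 in diclofenac livers against 15339, 16755 and 17579 in saline livers. At day 3 it had 16650.0, 15260.4 and 15657 in diclofenac livers, against 15713, 14746 and 14921 in saline livers, and at day 14 15427, 12778, 9415, 14247 and 14489 in diclofenac livers, against 11548, 11412, 12103, 13499 and 13939 in saline livers. The differences were -0.20, 0.067 and 0.07 (adjusted p of 0.339, 0.803 and 0.867, limma). The endothelial protein C receptor (Procr) was dim, with 244, 232 and 96.0 in diclofenac livers at day 1 against 72.2, 80.3 and 75.5 in saline livers, and 67.7, 143 and 78.8 in diclofenac livers at day 3 against 8.83, 86.6 and 63.9 in saline livers. Its day 1 groups parted by 1.21 (SE 0.718, adjusted p = 0.494), and at day 14, where it was too dim to be tested, it had 65.1, 56.3, 589, 17.3 and 64.3 in diclofenac livers, against 54.4, 59.1, 50.2, 33.5 and 54.9 in saline livers. On days 1 and 3 Procr passed the filter on dim genes only through its diclofenac arrays. Thrombomodulin (Thbd), the endothelial receptor that turns thrombin towards protein C, ran over 218-1071, 288-466 and 127-967 in diclofenac livers, against 156-251, 218-293 and 179-227 in saline livers. The highest values of Thbd at day 1 and of Thbd and Procr at day 14 were in diclofenac day 1 replicate 2 and diclofenac day 14 replicate 3, the 2 livers rich in neutrophil markers, and without them the Thbd differences of 1.03 and 0.55 were 0.34 and 0.12.

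**Figure D4:**
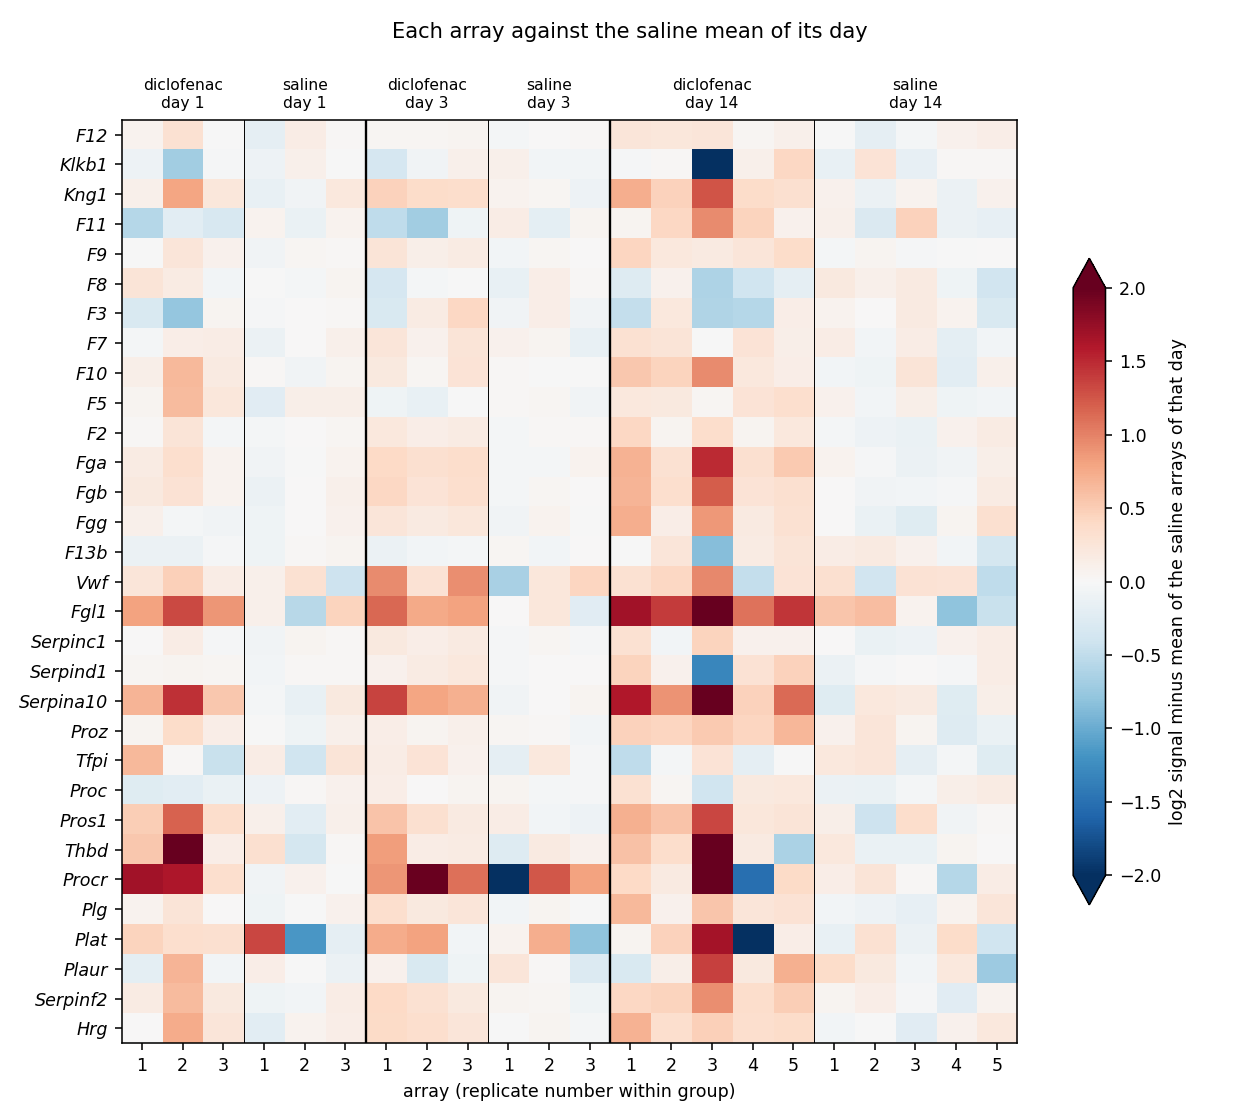
Log2 signal of each member (rows, Plau left out) in each array (columns, by group and replicate number) minus the mean of the saline arrays of its day, with colours capped at 2 in either direction. Diclofenac day 14 replicate 3 was the lowest of its group for Klkb1 (1211), F13b (6328) and Serpind1 (4347), and the highest for Fgl1 (74702) and Serpina10 (45631).

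Plasminogen (Plg), the precursor of plasmin, had 47609, 53926 and 45654 in diclofenac livers at day 1 against 42824, 45151 and 48006 in saline livers, and 55154, 49776 and 51604 in diclofenac livers at day 3 against 42069, 45363 and 43552 in saline livers. At day 14 it had 84012, 56939, 78371, 63374 and 65528 in diclofenac livers, against 51186, 49958, 47854, 55986 and 63386 in saline livers. All diclofenac livers lay above saline at day 3. The differences were 0.11, 0.26 (SE 0.0824 each) and 0.37 (SE 0.134, adjusted p = 0.362, limma), and 0.044, 0.11 and 0.14 after quantile normalization.

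The activators of plasminogen were near the dim end of the arrays. Tissue plasminogen activator (Plat) had 68.3, 62.9 and 62.3 in diclofenac livers at day 1 against 126, 22.4 and 44.3 in saline livers, and 83.5, 87.9 and 48.3 in diclofenac livers at day 3 against 52.7, 83.2 and 28.7 in saline livers. At day 14 Plat had 62.8, 82.8, 191, 13.4 and 66.3 in diclofenac livers, against 54.2, 74.2, 55.5, 77.4 and 45.7 in saline livers, and was not tested. Urokinase (Plau) was too dim to be tested on any day: at day 3 it had 6.10, 33.3 and 59.3 in diclofenac livers, against 3.26, 4.02 and 4.74 in saline livers, and its second probe set gave the opposite sign (-0.66). The urokinase receptor (Plaur), which myeloid cells carry, had 184, 336 and 201 in diclofenac livers at day 1 against 230.1, 208 and 192 in saline livers, and 197, 150.2 and 175 in diclofenac livers at day 3 against 221, 189 and 155 in saline livers. At day 14 Plaur had 105, 139.7, 331, 148 and 212 in diclofenac livers, against 167, 148, 124, 149.9 and 77.6 in saline livers, a difference of 0.42 that was 0.18 without diclofenac day 14 replicate 3.

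Both measured inhibitors of fibrinolysis were higher in diclofenac livers at days 3 and 14. Alpha-2-antiplasmin (Serpinf2), the fast inhibitor of plasmin, had 18665, 25694 and 18983 in diclofenac livers at day 1 against 15621, 15963 and 18408 in saline livers, and 22125, 20771 and 19214 in diclofenac livers at day 3 against 17507, 17254 and 15802 in saline livers. After 14 days it had 19402, 19766, 27584, 18591 and 20398 in diclofenac livers, against 15029.6, 15904, 14229, 12436 and 15179 in saline livers. The groups parted on each day, by 0.33 and 0.30 (SE 0.119 each) and 0.53 (SE 0.124, adjusted p = 0.16, limma), and the day 14 difference was 0.43 and called without replicate 3 (adjusted p = 0.0373). The day 1 difference was 0.18 without diclofenac day 1 replicate 2.

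Histidine-rich glycoprotein (Hrg), which binds plasminogen and fibrinogen, had 26344, 43737 and 30883 in diclofenac livers at day 1 against 22449, 27504 and 28725 in saline livers, and 33313, 32307 and 30282 in diclofenac livers at day 3 against 25370.5, 26573 and 24830.0 in saline livers. Its day 14 signals were 48963, 37896, 41790.5, 38224 and 38882 in diclofenac livers, against 28888, 29991, 25739.8, 32099 and 34718 in saline livers, all above (exact permutation p = 0.0079). Its differences were 0.33, 0.32 and 0.44 (adjusted p of 0.377, 0.473 and 0.228, limma), the first of which was 0.13 without diclofenac day 1 replicate 2.

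By class, 8 of 16 procoagulant, 5 of 9 anticoagulant and 2 of 2 measured antifibrinolytic genes had all diclofenac arrays above saline at day 3. So did 1 of 3 tested fibrinolytic genes, besides Fgl1. The share was 10.8% of all genes, 60.6% of other genes of at least 40000 signal and 20.1% of those from 10000 to 40000. Of the 31 members tested, 7 were in the brighter range and 12 in the other. At day 14 the class counts in the same order were 4 of 16, 2 of 8, 2 of 2 and 0 of 2. The 3 shares were then 2.19%, 9.86% and 7.59%. Median log2 differences at day 14 were 0.25 for procoagulant, 0.34 for anticoagulant, 0.49 for antifibrinolytic and 0.39 for fibrinolytic genes, all positive, and differences between classes were not tested.

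Related genes outside the set were read from lists of the same pathway. Among 10 tested genes of fibrinolysis and clot handling, 1 was called for the mean of days 1 and 3, beside 0.675% of all genes. It was Serping1, the C1 inhibitor that also blocks factor XII and kallikrein (0.39, adjusted p = 0.046, limma). Of the 10, 2 lay wholly above saline and 1 wholly below at day 1, against 8.23% and 8.08% of all genes. The counts were 4 and 0 at day 3 (10.8% and 9.2%) and 1 and 0 at day 14 (2.19% and 1.61%). Serping1 ran over 35990-50784, 35492-39958 and 42352-70947 in diclofenac livers, against 29716-33437, 27731-30293 and 33489-37965 in saline livers, apart on each day. Of 7 genes of the vitamin K cycle and of factor secretion, 0 were called on any day or for the mean of days 1 and 3, 0 had arrays apart on any day, and their median differences were 0.14, -0.046 and -0.033. The 2 tested thrombin receptors were not called either. Among 10 regulators of hepatic clotting genes 1 was called for the mean of days 1 and 3, again beside 0.675% of all genes. It was Stat3, the transcription factor downstream of interleukin-6 (0.94, adjusted p = 0.0131, limma). Stat3 had 2924-5137 and 3807-5365 in diclofenac livers on days 1 and 3, against 1839-2193 and 1924-2636 in saline livers. At day 14 Stat3 overlapped, with 2618-10311 against 1983-3104. Il6st, the shared signalling receptor of the interleukin-6 family, lay above saline at days 1 and 3 (0.42 and 0.47) without passing the test. Day 1 had 3 of the 10 regulators wholly above saline and 1 wholly below, against 8.23% and 8.08% of all genes. At day 3 these counts were 3 and 0, against 10.8% and 9.2%, and at day 14 both were 0. Differences of the 10 ran from -1.07 to 0.85 at day 1 (4 negative) and from -0.24 to 1.02 at day 3 (4 negative).

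Saline livers also differed between days. Day 3 against day 1 gave 0 calls of 31 members, beside 0.217% of all genes, and 3 members with an unadjusted p under 0.05. The lowest p was that of F3, which did not pass the test at -1.003 (SE 0.224, adjusted p = 0.0926, limma). Without diclofenac day 1 replicate 2, F3 passed at the same difference (SE 0.193, adjusted p = 0.0372, limma), where 0.941% of all genes were called. That liver enters this saline comparison only through the shared estimate of the spread. The dim gene Procr had a difference of -1.05 with an adjusted p of 0.657. In the model of all 22 arrays, saline day 14 minus the mean of saline days 1 and 3 was called for 12 of 31 members, 9 of them lower, beside 28.5% of all genes. Proz, F8, F10, F11, F3 and Serpina10 were lower at day 14 by this measure, at -0.90, -0.92, -0.83, -0.79, -0.88 and -0.93, and F5 was higher at 0.49, with these signs and calls also after quantile normalization. The differences of F2, Serpinc1 and F7, 0.33, 0.31 and -0.25, were not called after quantile normalization. The log2 3′/5′ ratio of the control probe sets was 0.594 ± 0.0297 in saline livers at day 1 and 0.776 ± 0.0449 at day 3 (SD, n = 3 each). At day 14 it was 0.624 ± 0.0634 (SD, n = 5). The part of RNA integrity in the differences between days was not tested. The labels used here name no array batch. Any difference in array handling between days cannot be told apart from day, number of injections and age at sampling.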

How the data were processed

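Each of 22 mouse livers gave total RNA for its own Affymetrix Mouse 430 2.0 array. The deposited intensity values are MAS5 signals on a linear scale, which the authors scaled to 1 level per array (the mean after trimming 2% from either end was 500.0 on each array), and per the labels replicates were not pooled. The genome build and detection calls are not given in the sources used here. Labels give 5 mice per group and the methods 6, whereas 3 (days 1 and 3) or 5 (day 14) arrays per group were analysed. Of the 45101 probe sets, 34958 were annotated to 1 gene, 932 to several and 9211 to none in GEO's platform table, and only the first were named. The probe set of highest mean signal stood for a gene, and a gene was tested if above the array's own median on at least 3 arrays of the model. Log2 signals were fitted with limma 3.58.1 (R 4.3.3, trend on signal), with 12 arrays of days 1 and 3 in 1 model and 10 of day 14 in another. The scripts were tested on simulated data. Single values were compared by exact permutation (Python 3.11.15, numpy 2.4.6), which cannot go below 0.1 for 3 against 3. Precision is limited by how few arrays there are. The members and lists were chosen with earlier results of these data known. Values in every array are given for members past the test, for those without overlap on any day, and for the largest difference in each role group and day. Alternatives covered filters, normalization, arrays in the model, weights, the methods' t-test, single arrays left out and the replicate block. Quantile normalization for the counts of arrays apart, the brightness split, the models of all 22 arrays for day 14 contrasts, and the counts and differences without the 2 outlying livers were chosen after seeing the data.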

Additional observations from a re-analysis of the deposited data

Results flagged for a closer look

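In 64 groups of 5 livers at day 14, 6 had a liver far from the other 4 by Dixon's test, where chance flags about 1 in 20 groups. In 4 of these the liver was diclofenac day 14 replicate 3. It had the lowest signal of its group for Klkb1 (1211, others 8866 to 11967), F13b (6328, others 11359 to 13575) and Serpind1 (4347, others 11409 to 14820.2), and the highest for Serpinf2 (27584, others 18591 to 20398). In saline livers at day 14, Procr was lowest in replicate 4 (33.5, others 50.2 to 59.1) and Plau in replicate 5 (5.61, others 46.3 to 62.5), both among the dim genes that were not tested on that day.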

How the results depend on the processing

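At day 3 the number of members called was 0 (26 of 12891 genes). It was 5 with each day on its own arrays (147 of 11871 genes) and 3 with array weights (155 of 12891). When 1 array was left out it was 0 to 4 (0 to 176 genes). By the methods' t-test on unadjusted p and fold change it was 2, for which no share over all genes is given. For the mean of days 1 and 3 the number was 2 (87 of 12891 genes). It was 4 with the filter at the 60th percentile (109 of 10814) and 4 with the array median added before log2 (119 of 12891). Array weights gave 4 (185 of 12891), and all 22 arrays in 1 model gave 0 (32 of 13357). With 1 array left out it was 0 to 5 (16 to 325 genes). With the replicate block this count was 0 (22 of 12891 genes), with adjusted p of 0.0753 for Fgl1 and 0.0695 for Serpina10 (limma). The block changed no other call of a member. The numbers were not taken to pair the livers, because 1 of 11 pairs had a residual correlation over 0.1. At day 14 the count was 0 (0 of 11895 genes). It was 6 with all 22 arrays in 1 model (134 of 13357) and 2 with array weights (110 of 11895). With 1 array left out it was 0 to 5 (0 to 124 genes). By the methods' t-test on unadjusted p and fold change it was 5, again without a share over all genes. Saline day 3 against day 1 gave 0 (28 of 12891 genes), and 1 (F3) with array weights (225 of 12891). With 1 array left out it gave 0 to 1 (0 to 120 genes). Day 1 and the day 3 minus day 1 effect stayed at 0 members in every setting run. No called value changed sign. Over all genes the calls ranged from 0 to 176 at day 3 (26 as reported), 16 to 325 for the mean of days 1 and 3 (87), 0 to 225 for saline day 3 against day 1 (28) and 0 to 134 at day 14 (0). The causes were not tested. The replicate block for the saline contrast and single-day fits for the contrasts across days could not be fitted. Few arrays limit all of these calls, and dim genes such as Procr, Plat and Plau stood near the array median or below it.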
